A study of Homo sapiens with 7 samples.

Results

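The 53 genes described here write, remove or read marks on histones and DNA outside the Polycomb repressive complex 2 (PRC2). They comprise 20 histone writers, 13 erasers and 10 subunits of Polycomb repressive complex 1 (PRC1). The remaining members are 3 readers of the methyl-CpG-binding domain (MBD) family and 7 enzymes or partners of DNA methylation. All 53 were chosen by name from the 34809 gene names on the array. The choice set no condition on their values, but earlier results of these data were known when it was made. Their names are carried by 90 probes. ACHN cells, an established human renal cell adenocarcinoma line, had been infected with a retrovirus that carried either the empty pBabe-hygro vector (EV, 4 arrays) or the same vector with a human HOTAIR cDNA (HOTAIR, 3 arrays), and both groups had been selected with hygromycin. HOTAIR was therefore driven by the vector and not by its own locus, and the sources used here do not say whether the selected cells were pooled or cloned, nor whether the samples of a group were separate cultures. The p-values measure the spread between these samples, which may be technical.

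HOTAIR is a long non-coding RNA of the HOXC cluster that is known for its binding to PRC2 and to a histone demethylase complex. Histone methyltransferases such as the MLL family and the SUV39H enzymes, and acetyltransferases such as EP300, place marks on histone tails, and demethylases of the KDM family, histone deacetylases and sirtuins take them off. PRC1 binds the histone mark that PRC2 makes through its CBX subunits, and its RING subunits add ubiquitin to histone H2A. DNMT enzymes methylate cytosine in CpG, UHRF1 brings DNMT1 to newly copied DNA, TET enzymes oxidize methylcytosine, and some MBD proteins, such as MBD1, bind it. The comparison asked whether the mRNA of any of these enzymes differed when HOTAIR was overexpressed.

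All signals below are the log2 of the processed intensity minus each array's own 75th percentile, so that 0 is the 75th percentile of the array and a difference of 1 is 2-fold. The number of arrays limits the precision. In RNA of whole cultures, fewer cells with a transcript and less transcript per cell cannot be told apart.

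HOTAIR itself could be detected above background on all 3 HOTAIR arrays and on none of the EV arrays. With the EV values raised to the lowest well-above-background value of any probe on their array, it was 9.46-fold higher. Undetected probes can lie above that value, so 9.46-fold is not a lower limit. The log2 difference of HOTAIR was 3.71, and 1.06 with normexp background correction (limma adjusted p = 0.0251). Its signal was -6.29, -6.97, -6.42 and -7.07 on the EV arrays and -3.12, -3.24 and -2.58 on the HOTAIR arrays, and limma gave an adjusted p of 0.0016. Of 12 renal epithelial or RCC markers, 11 were well above background on all 7 arrays and CA9 was on none. None of 4 endothelial and none of 5 fibroblast markers was well above background on all arrays, and of 5 leukocyte markers CD14 alone was. All 7 arrays lay on 1 slide with 1 scan, and each group took a row of its own, so that the group cannot be told apart from the row. The first principal component of the tested probes set EV 2 (74.0) away from EV 1, EV 3 and EV 4 (-18.1, -17.9 and -8.50), and HOTAIR 3 lay on the same side among the HOTAIR arrays (21.1 against -29.4 and -21.3). Where these arrays are named as the extremes of a gene, its difference is also given without both of them.

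Nearly all members were measurable in ACHN cells. For 49 of the 53 genes at least 1 probe was well above background on all 7 arrays. No probe of TET3, KDM5A or KDM6B rose well above background on any of the arrays. Of the members 94.3% had a tested probe, beside 47.9% of all gene names on the array. By probes the shares were 84.4% (76 of 90) and 48.2% of all probes, where testing required a signal well above background throughout 1 or both groups. HDAC5, a class IIa deacetylase, passed this filter through the HOTAIR group alone.

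No member passed the test. Of the 76 member probes, limma called 0 at an adjusted p of 0.05, where 0.167% of all 20419 tested probes were called (34 probes). At an unadjusted p under 0.05 the member probes numbered 2 of 76, one of DOT1L and one of MLL, beside 5.85% of all tested probes. No member probe had all HOTAIR arrays above all EV arrays, which 4.2% of all tested probes had. In 2 member probes, both of DOT1L, all HOTAIR arrays lay below all EV arrays, which 3.5% of all tested probes did. The rank product also called 0 member probes.

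The brightest tested probe stood for each gene. In the 49 genes detected on all arrays the log2 differences (HOTAIR minus EV) ran from -0.44 to 0.35, with a median of -0.043 beside 0.013 over all tested probes. The 95% confidence interval of all 49 lay within a 2-fold change in either direction, and that of 35 lay within 1.5-fold. By probes, 71 of the 76 intervals of members lay within 2-fold and 46 within 1.5-fold, beside 17773 and 11862 of the 20419 intervals of all tested probes. Members' probes other than the brightest had intervals from as low as -1.86 to as high as 1.75. The intervals that reached furthest from 0 were those of ASH1L (-0.57 to 0.98), KAT2A (-0.93 to 0.40) and DOT1L (-0.89 to 0.01). By class the median difference was -0.051 in the writers, -0.025 in the erasers (-0.051 without HDAC5), 0.025 in PRC1, -0.138 in the readers and -0.033 in the DNA methylation group. The sign of the PRC1 median turned under quantile normalization (-0.038), and the medians of the erasers (0.020) and the DNA methylation group (0.010) turned without scaling between arrays. Without EV 2 the medians were 0.022 in the writers, 0.0008 in the erasers, 0.067 in PRC1, -0.014 in the readers and -0.036 in the DNA methylation group. The plot of differences shows the estimate and interval of each gene.

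**Figure D1:**
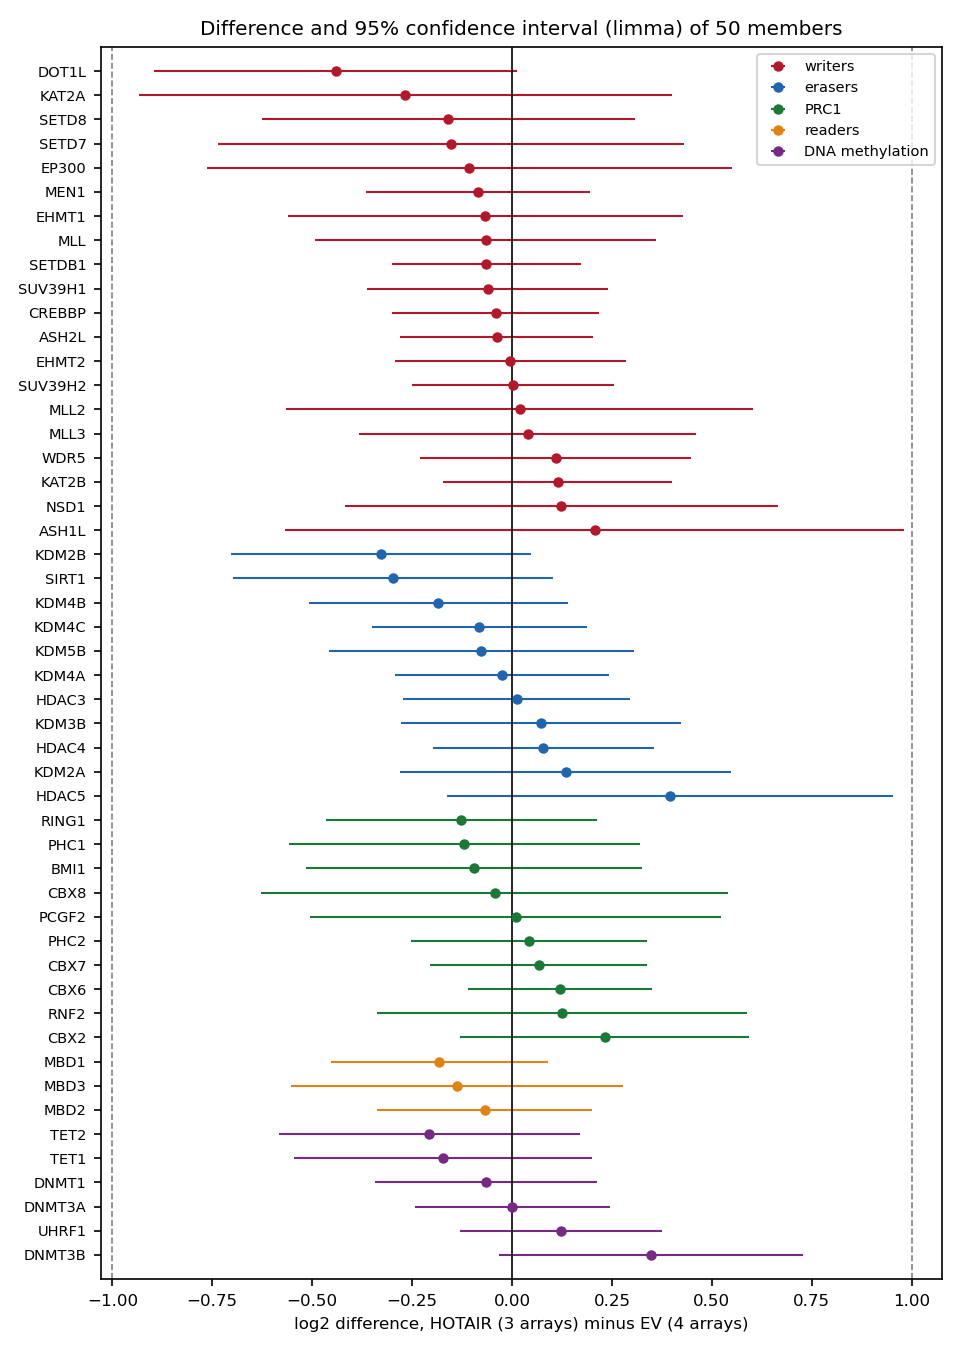
Log2 difference (HOTAIR, 3 arrays, minus EV, 4 arrays) of the brightest tested probe of 50 members, ordered by class and by difference, with limma's 95% confidence interval as bars. Dashed lines mark a 2-fold change in either direction, the intervals of the 49 genes detected on all arrays lie between them, and HDAC5 was not well above background on the EV arrays.

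Among the writers, DOT1L was the only one of 20 whose groups did not overlap. DOT1L methylates histone H3 within the globular core, away from the tail, and is known as a partner of MLL fusion proteins in leukaemia. Its brightest probe, A_23_P408768, gave -2.74, -2.11, -2.95 and -2.61 on EV 1 to EV 4 and -3.05, -3.08 and -3.0 on HOTAIR 1 to HOTAIR 3. EV 2 was the highest array, and EV 3 and HOTAIR 3 lay closest to each other. The difference was -0.44 (SE 0.19, limma adjusted p = 0.871), and the exact permutation test over the 35 splits of the arrays gave p = 0.0571. Without EV 2 it was -0.28, and without EV 2 and HOTAIR 3 it was -0.30.

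The other DOT1L probe, A_23_P101737, had -2.61, -2.94, -2.91 and -2.74 on the EV arrays and -3.22, -3.10 and -3.24 on the HOTAIR arrays. The groups did not overlap here either, and EV 2, the highest EV array for the first probe, was the lowest for this one. The difference was -0.39 (SE 0.12, 95% confidence interval -0.67 to -0.11), the limma adjusted p was 0.604, and the exact permutation p was 0.0286, the smallest that these 35 splits allow. Without EV 2 and HOTAIR 3 it was -0.41, with a limma adjusted p of 0.488. The 2 probes are different sequences of 60 bases, of which the first 30 are shown, printed in lower case throughout. They read the same samples on the same arrays, so they are not independent evidence of a difference between the groups. A_23_P408768 has no position in the array's annotation, and A_23_P101737 lies on the plus strand of chr19:2232170-2232229 (hg19).
DOT1L A_23_P408768: gtggcaggcggcacagttggaggtaactag
DOT1L A_23_P101737: cgggcggcgcctgggagtggctcttgctca

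The remaining writers with the largest differences overlapped between the groups. KAT2A, a histone acetyltransferase of the SAGA complex, had 2.79, 1.78, 2.59 and 2.10 on the EV arrays and 2.33, 2.23 and 1.59 on the HOTAIR arrays, a difference of -0.27 (SE 0.29, limma adjusted p = 0.993). Both groups had their lowest value on the array that stood apart, EV 2 and HOTAIR 3. The difference was -0.44 without EV 2, -0.04 without HOTAIR 3 and -0.21 without both, and ran from -0.44 to -0.04 over all arrays left out in turn. ASH1L, a trithorax-group histone methyltransferase, had -2.39, -2.31, -2.36 and -3.48 on the EV arrays and -2.34, -2.06 and -2.90 on the HOTAIR arrays, a difference of 0.21 (SE 0.33, limma adjusted p = 0.993). EV 4 alone lay below the other EV arrays, and without it the difference was -0.08. Without EV 2 and HOTAIR 3 it was 0.55. NSD1, a histone methyltransferase, had 0.26, 1.06, 0.18 and 0.51 on the EV arrays and 0.48, 0.50 and 0.90 on the HOTAIR arrays. Its difference was 0.12 (SE 0.23, limma adjusted p = 0.993), or 0.17 without EV 2 and HOTAIR 3.

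The SD over the 4 EV arrays was largest for ASH1L (0.56) and KAT2A (0.46), followed by MLL2, CBX8 and EP300. MLL2, now named KMT2D, a methyltransferase of enhancers, had -0.60, 0.46, -0.34 and -0.20 on the EV arrays and -0.39, -0.13 and 0.07 on the HOTAIR arrays. The acetyltransferase EP300 had -1.79, -0.84, -1.53 and -1.27 on the EV arrays and -1.78, -1.68 and -0.93 on the HOTAIR arrays. In both genes the highest array of each group was EV 2 and HOTAIR 3, and the differences of 0.02 and -0.11 were smaller than their SE of 0.25 and 0.28. Without both arrays they were 0.12 and -0.20. The plot of the signal by array shows the same pair of arrays across the members. EV 2 was the highest of the EV arrays for 26 of the 50 genes and the lowest for 11. The same count over all tested probes was not made. The median absolute deviation of EV 2 from the other EV arrays was 0.27 over member probes and 0.30 over all tested probes.

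**Figure D2:**
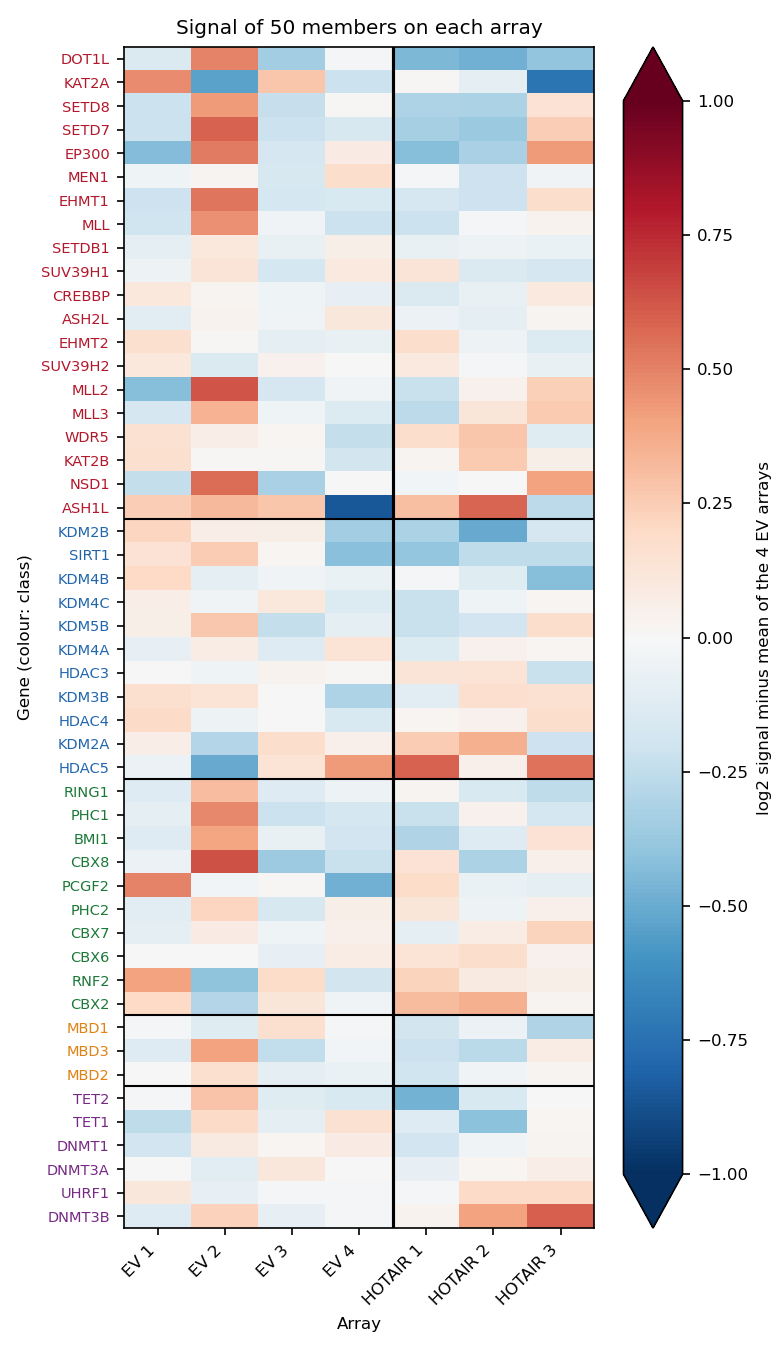
Log2 signal of the 50 tested members (rows, grouped and coloured by class) on each of the 7 arrays (columns), as the difference from the mean of the 4 EV arrays. EV 2 is the highest EV array for 26 genes, a count that was not made over all tested probes. The row of DOT1L is the only one in which all 3 HOTAIR arrays lie below all 4 EV arrays.

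Among the erasers, 11 of 13 were tested, and all 11 overlapped between the groups. KDM2B, a demethylase that binds CpG islands and recruits a form of PRC1, had -2.11, -2.25, -2.26 and -2.67 on the EV arrays and -2.64, -2.82 and -2.49 on the HOTAIR arrays. Only EV 4 lay within the range of the HOTAIR arrays. The difference was -0.33 (SE 0.16, limma adjusted p = 0.919), and a second KDM2B probe, which starts 95 bases away, differed by -0.02. The deacetylase SIRT1 had 0.41, 0.52, 0.28 and -0.15 on the EV arrays and -0.12, 0.01 and 0.01 on the HOTAIR arrays, and EV 4 was lower than all HOTAIR arrays while the other EV arrays were higher. Its difference was -0.30 (SE 0.17, limma adjusted p = 0.939). KDM2A, the paralogue of KDM2B, had -0.66, -1.02, -0.55 and -0.67 on the EV arrays and -0.47, -0.37 and -0.93 on the HOTAIR arrays, a difference of 0.13 (SE 0.18), or 0.21 without EV 2 and HOTAIR 3. HDAC5 had -5.76, -6.21, -5.57 and -5.28 on the EV arrays, with no value well above background, and -5.11, -5.66 and -5.16 on the HOTAIR arrays, where it was on all. The groups overlapped, with EV 4 above HOTAIR 2, and the limma adjusted p was 0.946. The EV level is a bound, and the difference on these values, 0.39, fell to 0.15 without EV 2 and HOTAIR 3 and to 0.074 with normexp background correction. KDM6B, a demethylase of the mark that PRC2 makes, had signals from -7.27 to -5.40 on the EV arrays and from -7.22 to -5.53 on the HOTAIR arrays, all not well above background.

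All 10 PRC1 subunits were well above background on every array and overlapped between the groups. CBX2, a chromodomain subunit, had 1.11, 0.61, 1.03 and 0.87 on the EV arrays and 1.22, 1.26 and 0.93 on the HOTAIR arrays, a difference of 0.23 (SE 0.15, limma adjusted p = 0.965). RNF2, the main ubiquitin ligase subunit, had -0.58, -1.38, -0.80 and -1.17 on the EV arrays and -0.76, -0.89 and -0.92 on the HOTAIR arrays. The HOTAIR arrays lay inside the EV range, and the difference of 0.13 became -0.01 without EV 2 and 0.02 without EV 2 and HOTAIR 3. RING1, its paralogue, had -0.34, 0.10, -0.34 and -0.26 on the EV arrays and -0.18, -0.36 and -0.46 on the HOTAIR arrays, a difference of -0.13 (SE 0.15) in which EV 2 was the highest array, and 0.04 without EV 2 and HOTAIR 3. CBX8, another chromodomain subunit, had -2.44, -1.75, -2.75 and -2.61 on the EV arrays and -2.24, -2.70 and -2.34 on the HOTAIR arrays. Its difference was -0.04 with all arrays 0.17 without EV 2, and 0.12 without EV 2 and HOTAIR 3.

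PHC1, a polyhomeotic subunit that links PRC1 complexes, was measured by 3 tested probes. The brightest, A_33_P3242014, had -0.28, 0.30, -0.40 and -0.35 on the EV arrays and -0.40, -0.14 and -0.36 on the HOTAIR arrays, a difference of -0.12 (SE 0.19). A_23_P323094 differed by -0.26 (SE 0.15) and A_33_P3378644 by 0.31 (SE 0.18), with limma adjusted p-values of 0.939 for both. Their starts lie 329 bases apart. The array's annotation places the 3 probes on the minus strand of chr12:55803544-55805597 (hg19). RefSeq lists both PHC1 and a pseudogene, PHC1P1, on chromosome 12, and which of them the annotated position belongs to was not tested, so that the values are uncertain. Without EV 2 and HOTAIR 3 the differences were 0.072 for the brightest probe, -0.32 for A_23_P323094 and 0.034 for A_33_P3378644.

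Among the readers, all 3 MBD genes had slightly negative differences, from -0.18 to -0.07, and all overlapped between the groups. MBD1, which binds methylated CpG in promoters, had 1.14, 1.04, 1.32 and 1.14 on the EV arrays and 0.98, 1.10 and 0.86 on the HOTAIR arrays. Its lowest HOTAIR value was on HOTAIR 3, and the difference was -0.18 (SE 0.12, limma adjusted p = 0.951), or -0.16 without EV 2 and HOTAIR 3. The other 3 tested MBD1 probes differed by 0.01, 0.03 and 0.16.

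In the DNA methylation group, the maintenance enzyme DNMT1 and the de novo enzyme DNMT3A differed by -0.07 (SE 0.12) and 0.00 (SE 0.10). DNMT3B, the other de novo enzyme, had the largest difference of the group. Its signals were -0.24, 0.12, -0.19 and -0.12 on the EV arrays and -0.07, 0.30 and 0.49 on the HOTAIR arrays, and EV 2 was the only EV array above a HOTAIR array, HOTAIR 1. The difference was 0.35 (SE 0.16, limma adjusted p = 0.906), and the exact permutation p was 0.114. Without EV 2 and HOTAIR 3 the difference was 0.30. TET2 had -2.01, -1.72, -2.12 and -2.15 on the EV arrays and -2.47, -2.15 and -2.0 on the HOTAIR arrays, a difference of -0.21 (SE 0.16). TET1 had -2.31, -1.86, -2.14 and -1.90 on the EV arrays and -2.19, -2.46 and -2.03 on the HOTAIR arrays, a difference of -0.17 (SE 0.16). Both TET genes overlapped between the groups, and limma's adjusted p-values were 0.989 and 0.993. For TET3, all 14 values of its 2 probes, from -7.52 to -5.51, were not well above background.

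A wider list of the same kinds of proteins was compared in the same fit. Of 120 further names, 114 are on the array, and all but 7 of these had a tested probe. Limma called 0 of them in either direction, 2 (1.87%, beside 5.85% of all tested probes) had an unadjusted p under 0.05 (ZBTB38 and PHF8), 1 (0.935%, beside 4.2%) lay wholly above the EV arrays and 3 (2.8%, beside 3.5%) wholly below, and their median difference was -0.039. ZBTB38, a methyl-CpG-binding zinc finger protein, had -4.0, -3.71, -3.82 and -4.01 on the EV arrays and -4.48, -4.15 and -4.12 on the HOTAIR arrays, a difference of -0.37 (SE 0.14, limma adjusted p = 0.770). PHF8, a histone demethylase, differed by 0.34 (SE 0.14, limma adjusted p = 0.845) with overlapping groups. FBRS and BCOR, subunits of variant PRC1 complexes, had differences of 0.35 (SE 0.24) and -0.34 (SE 0.17), also with overlap.

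Several members were read by more than 1 probe, and these probes often did not move together from array to array. In 19 genes with several tested probes there were 34 pairs of probes. The differences between the groups lay over 0.5 apart in 2 pairs, those of PHC1 given above and a pair of MLL, and had opposite signs in 15. MLL, now named KMT2A, methylates histone H3 at active promoters. Its brightest probe, A_33_P3390570, had 2.24, 2.9, 2.40 and 2.23 on the EV arrays and 2.23, 2.43 and 2.48 on the HOTAIR arrays, a difference of -0.07 (SE 0.18). A_33_P3390576, on the plus strand of chr11:118362577-118362636 (hg19), had -3.79, -3.60, -3.33 and -3.19 on the EV arrays and -2.98, -2.94 and -3.19 on the HOTAIR arrays. Only EV 4 reached into the HOTAIR range. The difference was 0.44 (SE 0.17, limma adjusted p = 0.765), and the exact permutation p was 0.0857.
MLL A_33_P3390576: tctgaagcaagttctgacagctttgttgaa

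Probes of a gene lay apart on EV 2. Of the 76 member probes, 6 of 6 genes lay over 1 log2 unit from the mean of the other EV arrays on EV 2, or 7.89% beside 9.48% of all tested probes. All 6 deviated in the same direction on HOTAIR 3. The sign was the same on both arrays in 56 of the 76 member probes, beside 14948 of all 20419 tested probes. On EV 2 a UHRF1 probe (A_33_P3379454) and an MLL probe (A_33_P3307307) were higher, and probes of EHMT1, PHC2, SUV39H1 and MBD1 were lower. The difference between the groups of this MLL probe was -0.03 with all arrays and 0.07 without EV 2 and HOTAIR 3. None of the 6 was the brightest probe of its gene. Over the 76 member probes the deviations on EV 2 and HOTAIR 3 correlated with r = 0.81 as a description, where probes share the 2 arrays (0.62 over all tested probes).

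**Figure D3:**
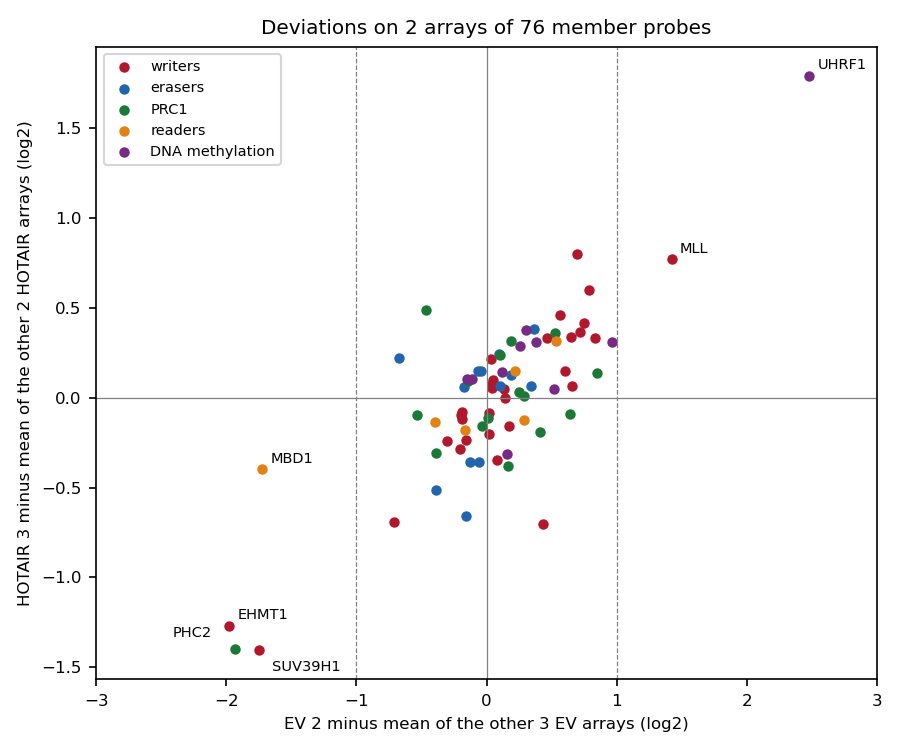
Deviation of each of the 76 tested member probes on EV 2 from the mean of the other 3 EV arrays (x axis, log2) against its deviation on HOTAIR 3 from the mean of the other 2 HOTAIR arrays (y axis, log2), coloured by class. The 6 named probes lie beyond the dashed lines at 1 log2 unit on EV 2, and each deviates in the same direction on HOTAIR 3. The sign is the same on both arrays in 56 of the 76 member probes, beside 14948 of all 20419 tested probes.

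UHRF1 was one example. Its brightest probe, A_23_P208880, was nearly level, with 2.60, 2.41, 2.47 and 2.47 on the EV arrays and 2.47, 2.68 and 2.68 on the HOTAIR arrays. The other, A_33_P3379454, had -0.96, 1.97, -0.64 and 0.07 on the EV arrays and -0.57, -0.61 and 1.20 on the HOTAIR arrays, so that EV 2 and HOTAIR 3 were far above the rest of their groups. The differences between the groups were 0.12 (SE 0.11) and -0.10, the latter -0.08 without EV 2 and HOTAIR 3. The starts of both probes lie 1170 bases apart on the plus strand of chromosome 12 in the array's annotation (hg19), at chr12:20707196-20707255 and chr12:20706026-20706085, while RefSeq lists UHRF1 on chromosome 19, so that a near-identical copy cannot be told apart from the gene. Their first 30 bases, of 60, are shown because the 2 probes carry the same gene name and behave differently.
UHRF1 A_23_P208880: tgtattagggaagaatgagacaattttgtg
UHRF1 A_33_P3379454: ggcttaacttaaacaggtagtgtttcctcc

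SUV39H1, which places the methyl mark of heterochromatin, showed the opposite direction. Its probe A_23_P422193, on the plus strand of chrX:48566887-48566946 (hg19), had -0.68, -0.49, -0.80 and -0.52 on the EV arrays and -0.50, -0.76 and -0.79 on the HOTAIR arrays. The probe A_33_P3407524, whose start lies 978 bases upstream at chrX:48565909-48565968, had -2.64, -4.62, -2.90 and -3.07 on the EV arrays and -2.59, -3.01 and -4.20 on the HOTAIR arrays. Here EV 2 and HOTAIR 3 were the lowest arrays of their groups by over 1 log2 unit, and the difference between the groups was 0.04 with them and 0.08 without.
SUV39H1 A_23_P422193: ctggtccacgtggattgtctcagggaagcc
SUV39H1 A_33_P3407524: tccgtattgaatgcaagtgtgggactgagt

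PHC2, a polyhomeotic subunit like PHC1, repeated this. The probe A_23_P423864, on the minus strand of chr1:33789400-33789459 (hg19), ran from 3.66 to 4.04 over all arrays. The probe A_23_P34510, whose start lies 5095 bases further upstream in the gene at chr1:33794495-33794554, had -0.98, -3.23, -1.31 and -1.61 on the EV arrays and -0.85, -1.47 and -2.56 on the HOTAIR arrays. The lowest array of each group was again EV 2 and HOTAIR 3, and the difference between the groups was 0.15 with them and 0.14 without.
PHC2 A_23_P423864: actcccacacttctttgcctataaatcttc
PHC2 A_23_P34510: tgggcatgggacaccacttcctgccaagtg

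In EHMT1, a methyltransferase that pairs with EHMT2, the brightest probe was highest on EV 2 (1.02 against 0.27 to 0.33 on the other EV arrays), and a dimmer probe, A_23_P20894, was lowest there (-5.49 against -4.14 to -3.09). The third tested EHMT1 probe was also lowest there (-3.18 against -2.97 to -2.96). The differences of these probes were -0.07, 0.34 and -0.08 with all arrays and -0.01, 0.27 and -0.03 without EV 2 and HOTAIR 3. In MBD1 the probe A_24_P376322 had -6.01 on EV 2 and -4.42 to -4.12 on the other EV arrays, while the brightest had 1.04 and 1.14 to 1.32. The difference of A_24_P376322 was 0.01 with all arrays and -0.29 without EV 2 and HOTAIR 3. For 28 pairs the array's annotation gives both positions on the same chromosome or contig. The probe nearer the annotated 5′ end was lower on EV 2, relative to its partner, in 19 pairs and higher in 9. The positions of the UHRF1, PHC1 and SETD8 pairs are uncertain, and several pairs share a gene and are not independent. No such count was made over all probes of the array. The part of RNA quality, labelling or hybridization in these values was not tested. Without EV 2 and HOTAIR 3, limma called 0 of the 76 member probes, 2 had an unadjusted p under the limit (beside 8.96% of all tested probes), and the intervals of 49 of the 50 genes lay within 2-fold. Of the member probes 18.4% then had groups that did not overlap, beside 28.2% of all tested probes.

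**Figure D4:**
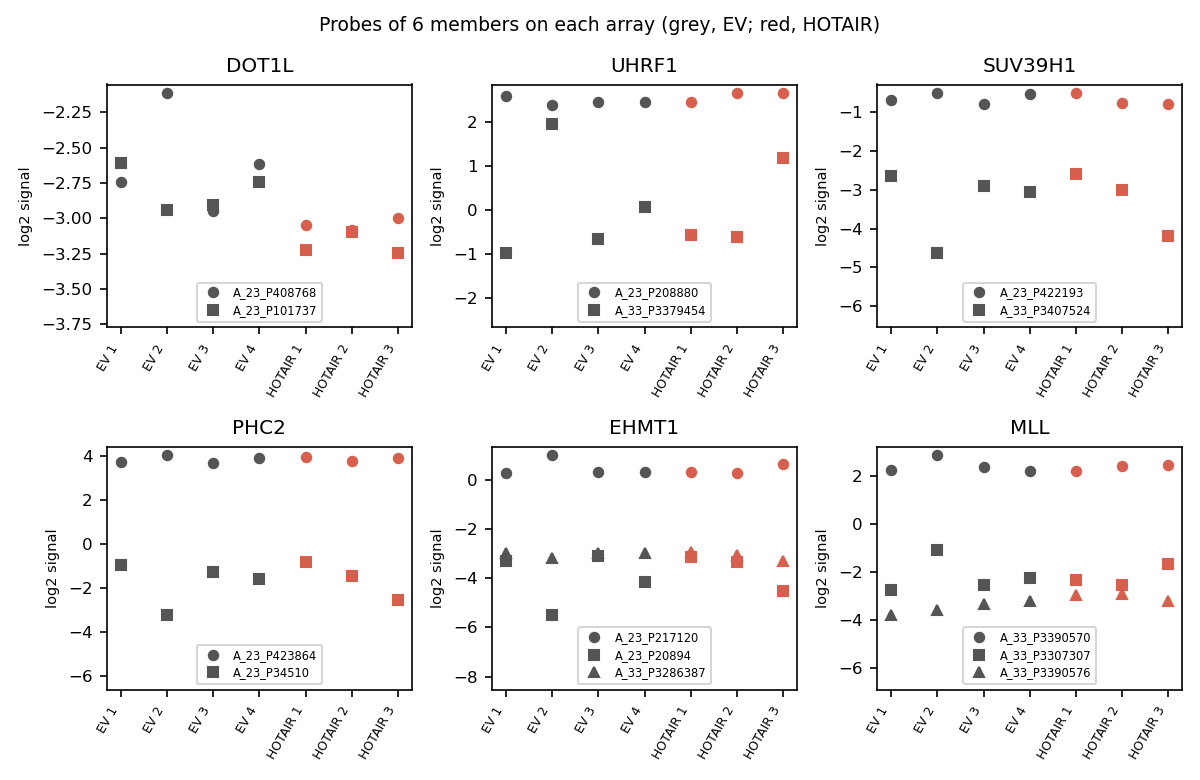
Log2 signal (y axis) of the tested probes of 6 members on each of the 7 arrays (x axis), in grey for EV and red for HOTAIR, with 1 symbol per probe. Both DOT1L probes are lower on all 3 HOTAIR arrays than on all 4 EV arrays, and in UHRF1, SUV39H1, PHC2, EHMT1 and MLL the probe drawn as squares lies over 1 log2 unit from the other EV arrays on EV 2.

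Some further probes have an uncertain target. Both SETD8 (now KMT5A) probes start 19 bases apart on an unplaced contig of hg19, while RefSeq lists the gene on chromosome 12 and has 3 pseudogenes of it. These probes overlap and are not separate evidence. An MLL3 (now KMT2C) probe is placed on chromosome 1, while the gene is on chromosome 7, and a BMI1 probe has no position, while RefSeq lists the pseudogene BMI1P1. Signal from such copies cannot be told apart from that of the genes, and none of these probes was called.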

How the data were processed

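The authors labelled total RNA with Cy3, hybridized it to SurePrint G3 Human GE 8 × 60 K arrays (1 colour) and extracted the images with Agilent Feature Extraction 10.7.3.1. The deposited files hold processed intensities, which the software had background-subtracted, with flags for outlier, saturated and well-above-background spots, and a deposited value table repeats the intensities. The array annotation is on hg19, and 84 of 90 member probes matched RefSeq by accession, for names and chromosomes only. Here, log2 intensities were centred on each array's 75th percentile over 58717 non-control spots (intensity of that percentile 523 to 649), outlier spots (408 to 600 per array) were left out, and spots of a probe were averaged. Of 42405 probes, 20419 were tested with limma 3.58.1 (R 4.3.3), adjusted by Benjamini-Hochberg over these 20419, and single genes with an exact two-sided permutation test of the means. The brightest tested probe stood for a gene. Limma was tested on simulated arrays. The rank product and the exact Mann-Whitney U test, whose smallest two-sided p here is 0.0571, were alternatives, with other background correction, scaling, filters, moderation, array weights and left-out arrays. Named members were those with non-overlapping groups, the largest differences in each class, not detected, with the largest spread over EV, or with probes over 0.5 apart; EHMT1, SUV39H1, PHC2 and the second probes were named after their values were seen. The members and lists were chosen with earlier results of these data known.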

Additional observations from a re-analysis of the deposited data

Results flagged for a closer look

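Each of 78 probes (76 member probes, HOTAIR and IGFBP2) was checked for an EV array far from the other 3, by the gap to its nearest neighbour as a share of the range of the group, against the 95% critical value of Dixon's test for 4 samples. Chance passes about 1 in 20 such groups, or 3.9 of 78, and 5 passed. EV 2 was the distant array in 4 of them. It was higher than the other EV arrays for the brightest probe of EHMT1 (1.02 against 0.27 to 0.33, gap share 0.928) and of SETD7, a histone methyltransferase (-0.63 against -1.44 to -1.38, gap share 0.924). It was lower for a dimmer probe of EHMT1 (-3.18 against -2.97 to -2.96, gap share 0.962) and a dimmer probe of MBD1 (-6.01 against -4.42 to -4.12, gap share 0.840). EV 4 was lower than the other EV arrays for ASH1L (-3.48 against -2.39 to -2.31, gap share 0.933). The difference of SETD7 was -0.15 with all arrays and -0.16 without EV 2 and HOTAIR 3.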

How the results depend on the processing

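No member probe and none of the further genes was called under any alternative, including array weights, the rank product and each array left out in turn. Calls over all tested probes (34) numbered 12 with normexp background correction, 14 without a filter on dim probes, 22 with only probes detected on all arrays, 20 with trend and robust moderation, 324 with array weights, 74 by the rank product, 0 by the exact Mann-Whitney U test, 14 without EV 2 and HOTAIR 3, and 9 to 31 with 1 array left out. Member probes at an unadjusted p under 0.05 (2) numbered 4 (5.26%, beside 5.59% of all tested probes) with normexp, 9 (11.8%, beside 17.9%) with array weights, 0 by the exact Mann-Whitney U test, which cannot reach it, and 1 to 6 with 1 array left out, with the highest count without EV 4 (7.89%, beside 7.78%). Member probes with non-overlapping groups (2) numbered 4 with normexp (5.26%, beside 7.84%), 4 with quantile normalization (5.26%, beside 7.96%), 5 with scaling to the median of detected probes (6.58%, beside 7.71%), 14 without EV 2 and HOTAIR 3 (18.4%, beside 28.2%), and 2 to 11 with 1 array left out, with the highest count without HOTAIR 3 (14.5% beside 21% of all tested probes).

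Of 518 recomputed values of 26 probes, 23 changed sign, all of probes whose difference was at most 0.21 in size. Without EV 2 and HOTAIR 3 the difference was 0.039 for RING1, 0.072 for PHC1, 0.12 for CBX8 and 0.036 for MLL. With array weights it was 0.11 for PHC1, -0.048 for RNF2, 0.075 for CBX8 and 0.014 for MLL. With 1 array left out it ran from -0.12 to 0.23 for MLL2, from -0.20 to 0.041 for PHC1, from -0.0084 to 0.26 for RNF2, from -0.16 to 0.17 for CBX8, from -0.37 to 0.067 for EP300, from -0.14 to 0.085 for MLL, from -0.075 to 0.44 for ASH1L and from -0.015 to 0.31 for NSD1. The cause was not tested.

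The deviations of arrays with the same number in both groups correlated with r = 0.39, -0.37 and -0.41 for replicates 1, 2 and 3. Those of EV 2 and HOTAIR 3, which have different numbers, correlated with r = 0.62. Whether the numbers pair samples cannot be decided from these values, since a deviation from a group mean depends on every array of the group. With the replicate number as a block over the 6 arrays of the shared numbers, which drops EV 4, 0 probes were called, 4 member probes had an unadjusted p under 0.05 (5.26%, beside 5.25% of all tested probes), 8 had non-overlapping groups (10.5%, beside 14.8%), ASH1L differed by -0.075, HOTAIR by 3.59 (limma adjusted p = 0.0772) and IGFBP2, a gene higher on all HOTAIR arrays, by 2.38 (limma adjusted p = 0.127). By the exact Mann-Whitney U test the differences of 3.71 for HOTAIR and 2.37 for IGFBP2 had an adjusted p of 0.742, since 3 arrays against 4 cannot pass it.

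The intervals reached up to 0.98 in log2 for the brightest probe of a gene and as far as -1.86 for other probes. They limit what the 7 arrays can show. For members whose interval reaches beyond 1.5-fold, a change of that size is not excluded. Whether a 1.5-fold change would have been called in the other members was not tested. TET3, KDM5A and KDM6B were not well above background and were not tested.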
